A study of Mus musculus with 12 samples.

Results

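To follow guidance receptors and their ligands through postnatal cerebellar development, the genes of the ephrin, Slit-Robo and netrin systems were taken from a count table of GFP-sorted cerebellar cells. Members were chosen by symbol alone, with no expression value used. They are every Epha and Ephb receptor and every Efna and Efnb ligand gene with a number after the letter, Slit1 to Slit3, Robo1 to Robo4, the netrins Ntn and Ntng, Unc5a to Unc5d, and Dcc and Neo1. This gave 41 of the 24421 entries of the table: 9 Epha and 5 Ephb receptors, 5 Efna and 3 Efnb ligands, 3 Slits, 4 Robos, 6 netrins and 6 netrin receptors. All cells came from the cerebellum of Aldh1l1-GFP mice, a reporter line in which the promoter of the astrocyte gene Aldh1l1 drives green fluorescent protein (GFP). The line was kept on a C57/BL6J background and both sexes were used. GFP-positive cells were isolated by fluorescence-activated sorting at postnatal day 1 (P1), P7, P14 and P28, with 3 libraries at each age and no other treatment or genotype. By the study's methods the libraries were made from total RNA, and no selection of polyadenylated RNA is described there. The labels do not say whether the libraries of an age came from separate animals, so the p-values measure the spread between these samples, which may be technical.

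Ephrins are ligands anchored in the membrane of one cell that bind Eph receptor tyrosine kinases on its neighbour and signal in both directions. EphA receptors mainly bind the lipid-anchored ephrin-A ligands, EphB receptors mainly bind the transmembrane ephrin-B ligands, and Epha4 binds both. Slits are secreted proteins that repel axons and migrating cells through Robo receptors, while netrin-1 attracts through Dcc and repels through Unc5 receptors. In the developing cerebellum these systems are best known for steering axons and the migration of granule cell precursors and other neurons born in or near the hindbrain.

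The libraries held 6399499 to 14733985 reads on genes, and each value below is a read count divided by the library's size factor, here called a normalized count. Of 10 astrocyte markers, 9 were higher at P28 than at P1 and 1, Aldh1l1 itself, was lower (log2 fold change -0.76, adjusted p = 0.0286). The summed astrocyte markers lay at 61652 to 76417 at P1, 27396 to 51381 at P7, 156102 to 195407 by P14 and 363775 to 427788 by P28, and none of the 10 was at 0 in all libraries of an age. Markers of other cells were also present and moved with age. The summed 9 oligodendrocyte markers were 7289 to 11396 at P1 and 265270 to 336692 at P14, and the 6 cycling-cell markers were 17715 to 23808 at P7 and 17.7 to 81.8 at P28. From P7 to P14, 2 of the 9 general neuron markers rose and 4 fell, and most of their sum at P14 (26597 to 45046) was Snap25 (15942 to 30596). The sum of 5 choroid plexus markers ranged from 829 to 108545 within P14 and from 17656 to 181394 within P28, with replicate 3 lowest at both ages.

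The mean normalized count of a member was highest at P1 for 27 of the 41 genes, at P7 for 5, at P14 for 6 and at P28 for 3, and it was lowest at P28 for 26. Both held for 18 genes, which were highest at P1 and lowest at P28. Of the 41, 40 passed the filter on low values (3 or more libraries with a normalized count of 10 or higher). The exception was Ntn5, a netrin for which 19, 1 and 0 reads were counted at P1, 0, 2 and 0 at P7, and none later. Over the 4 ages, 31 of the 40 differed by the moderated F test of limma on log2(normalized count + 1), with adjusted p under 0.05, beside 43.8% of all 15464 genes tested. In these bulk samples, fewer cells of a type and less RNA per cell cannot be told apart, and age and cell makeup changed together.

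**Figure D1:**
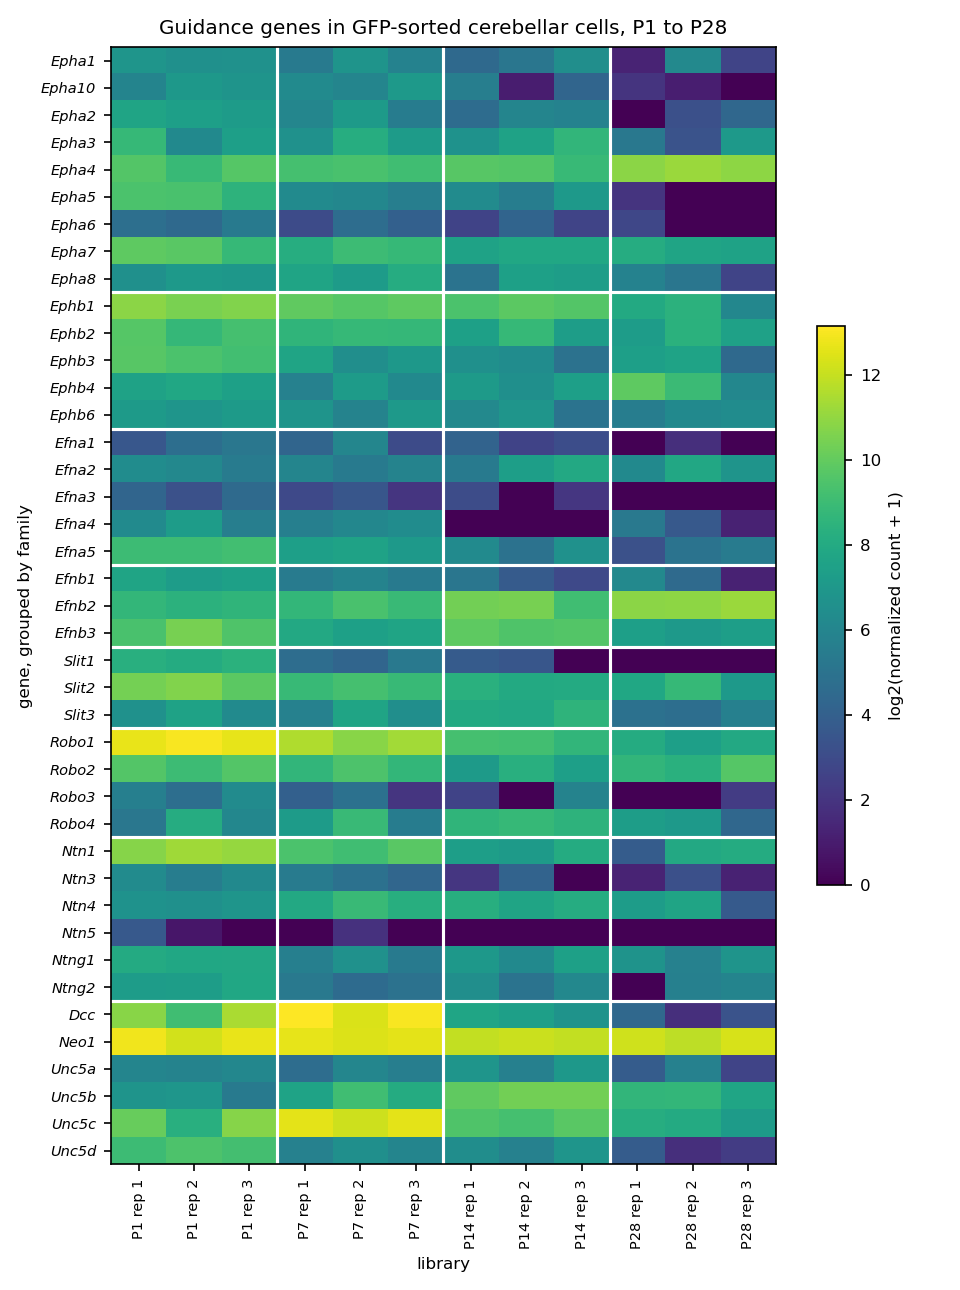
Heat map of log2(normalized count + 1) for the 41 guidance genes (rows, grouped by family, white lines between families) in the 12 libraries (columns, 3 per age). Robo1 runs from the bright end at P1 to mid-scale at P28, Dcc and Unc5c are brightest at P7, and Efnb2 and Epha4 are brightest at P28.

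The net difference between P28 and P1 was called in most members. Lower expression at P28 was called in 29 of the 40 tested members, beside 20% of all genes, and higher expression in 3, beside 14.6%. The 3 that rose were Efnb2, Unc5b and Epha4. The median log2 fold change of the 40 members was -2.73, or -2.46 with the genes that had no read at P28 set to their bound, and that of all genes was -0.24. Genes with a read numbered 17464 to 17785 in the P1 libraries and 14249 to 14749 in those of P28, and the correlation of log2 values across genes between replicates was 0.928 to 0.951 at P1 and 0.849 to 0.862 at P28. The part of either in the falls was not tested. A total of 35 members had a fold change below 0 and 5 above. All 3 rises and 19 of the 29 falls kept their call whichever library was left out. The others are named with their families below. With library totals in place of size factors, the median of all genes moved by -0.42 on the log2 scale and the share of rises among all calls went from 42.3% to 21.0%, while the members' calls were 3 higher and 33 lower. The share of all genes called in each direction with library totals is not given here.

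**Figure D2:**
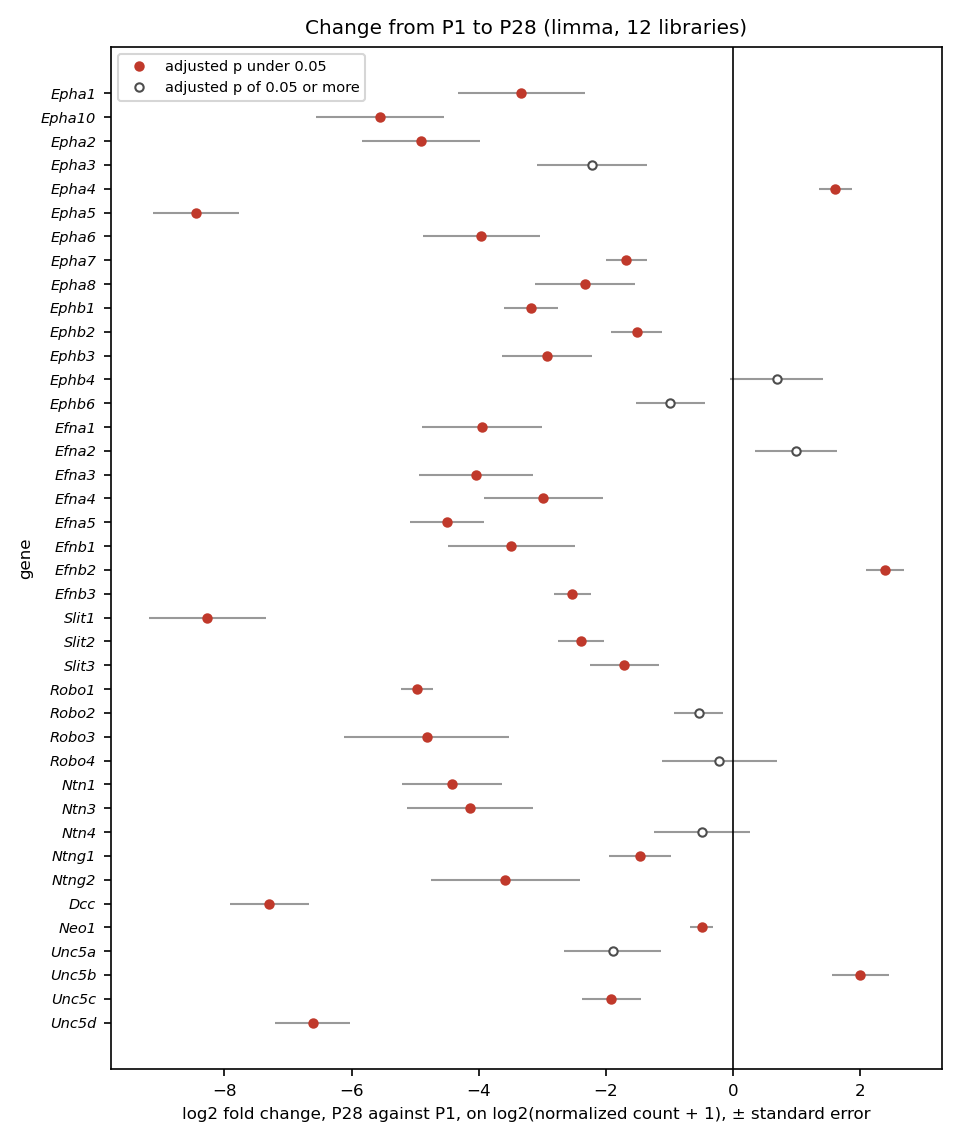
Log2 fold change from P1 to P28 of the 40 tested guidance genes (points, limma on log2(normalized count + 1), 12 libraries) with its standard error (bars). Filled points have an adjusted p under 0.05, and 3 of them lie right of 0 (Epha4, Efnb2 and Unc5b). Slit1 and Efna3 had no read at P28, so their positions depend on the added 1. The positions of members with few reads at P28 depend on it as well. Examples are Epha5 and Efna1 with 2 reads in all and Epha10 and Robo3 with 3.

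The falls were spread over the 3 intervals between ages. From P1 to P7, 3 members were higher (Unc5c, Dcc and Unc5b), beside 3.47% of all genes, and 7 were lower (Slit1, Unc5d, Epha5, Efnb3, Ntng1, Robo1 and Slit2), beside 4.24%. From P7 to P14, 3 were higher (Efnb3, Unc5b and Efnb2), beside 10.8% of all genes, and 6 were lower (Efna4, Dcc, Unc5c, Robo1, Robo2 and Neo1), beside 10.0%. From P14 to P28, 4 were higher (Efna4, Epha4, Efnb2 and Robo2), beside 5.68%, and 11 were lower (Epha5, Dcc, Unc5d, Slit3, Epha2, Unc5a, Efnb3, Ephb1, Unc5b, Unc5c and Robo1), beside 8.76%. The median of the members was -0.76, -0.74 and -1.76 over the 3 intervals (-1.72 with bounds in the last), beside 0.037, -0.086 and -0.12 for all genes. Robo1 was the 1 member that fell in each of the 3. With library totals, the median of all genes moved by -0.25 from P7 to P14 and by -0.22 from P14 to P28, and the share of rises among all calls went from 51.9% to 32.9% and from 39.3% to 19.1%.

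Other settings also ended calls of members. A fit of only the libraries of the ages compared lost 17. From P14 to P28 these were the falls of Epha2, Ephb1, Robo1, Dcc, Unc5a and Unc5d and the rises of Efna4, Efnb2 and Robo2 (limma, adjusted p from 0.0509 to 0.241). Between P1 and P28 they were the falls of Epha1, Epha8, Efna4, Efnb1, Slit3, Ntng1, Ntng2 and Neo1 (adjusted p from 0.0534 to 0.128). With edgeR and TMM on the recovered reads, the net falls of Epha1 (-1.94), Epha8 (-1.85), Efna4 (-2.38), Efnb1 (-2.45), Ntng2 (-2.22) and Neo1 (-0.47) and the P14 to P28 changes of Epha2, Efnb2 and Unc5a were lost, 9 in all (adjusted p from 0.0503 to 0.149). With DESeq2 size factors edgeR lost 7 of these, all but Efnb1 and Neo1. DESeq2 lost the net fall of Epha1 and gained that of Epha3 (-1.90, adjusted p = 0.0458). A pseudocount of 0.1 lost the P1 to P7 changes of Epha5, Slit1 and Dcc, the P14 to P28 falls of Epha2 and Unc5a and the net fall of Ntng2, and a pseudocount of 10 lost the P14 to P28 changes of Epha2 and Efna4. With no filter, the P14 to P28 changes of Epha2, Efnb2, Robo2 and Unc5a, the P1 to P7 fall of Slit1 and the net fall of Neo1 were lost, and TMM scaling lost the last of these. Library totals lost the rises of Efnb2 in both later intervals and of Robo2 from P14, and gained net falls of Epha3, Ephb6, Robo2 and Unc5a (adjusted p from 0.0226 to 0.0488).

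The sequence upstream of the gene start was examined for 36 members with an entry in the RefSeq promoter table (GRCm38.p6). The window used here is the 250 bases before the start, read 5′ to 3′ on the strand of the gene. Where a gene had more than 1 entry, a motif was counted if any of its windows held it. The highest CpG number and share of G and C were then taken, and the first entry is the one shown. The GC box GGGCGG or its other strand CCGCCC was found for 25 of the 36 members (69.4%), beside 35.4% of 27025 genes, and the median number of CpG was 17.5, beside 6. The TATA box TATAAA or TTTATA was in 2 (Efnb2 and Slit2, 5.56%), beside 14.3%. The E-box CAGCTG was in 6 (16.7% beside 14.7%), its variant CAGATG or CATCTG in 4 (11.1% beside 16.3%), the SOX motif ACAAAG or CTTTGT in 2 (5.56% beside 18.6%), and the cAMP response element TGACGTCA in 1 (2.78% beside 1.77%). These are matches of letters and not sites of binding. The median share of G and C was 65.6% in the members' windows, beside 52.8% in all genes. The 6 windows shown are given because they belong to the 3 members that rose from P1 to P28 and to the 3 that fell with the lowest p-values over the 4 ages among members with an entry. Capitals mark GC boxes.
Efnb2: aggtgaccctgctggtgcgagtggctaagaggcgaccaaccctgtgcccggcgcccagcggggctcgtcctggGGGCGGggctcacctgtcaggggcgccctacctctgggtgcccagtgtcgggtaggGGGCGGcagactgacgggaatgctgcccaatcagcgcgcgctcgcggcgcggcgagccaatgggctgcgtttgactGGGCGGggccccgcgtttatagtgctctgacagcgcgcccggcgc
Epha4: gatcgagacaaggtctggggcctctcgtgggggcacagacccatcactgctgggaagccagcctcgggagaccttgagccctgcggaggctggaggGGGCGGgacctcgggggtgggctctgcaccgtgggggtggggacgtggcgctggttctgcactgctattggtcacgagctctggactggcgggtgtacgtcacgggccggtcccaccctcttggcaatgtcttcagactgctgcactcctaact
Unc5b: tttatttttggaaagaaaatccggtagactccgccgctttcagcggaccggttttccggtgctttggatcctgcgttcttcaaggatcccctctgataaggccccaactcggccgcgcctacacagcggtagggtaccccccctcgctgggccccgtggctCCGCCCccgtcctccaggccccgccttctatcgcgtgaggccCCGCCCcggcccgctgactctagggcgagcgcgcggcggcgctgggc
Robo1: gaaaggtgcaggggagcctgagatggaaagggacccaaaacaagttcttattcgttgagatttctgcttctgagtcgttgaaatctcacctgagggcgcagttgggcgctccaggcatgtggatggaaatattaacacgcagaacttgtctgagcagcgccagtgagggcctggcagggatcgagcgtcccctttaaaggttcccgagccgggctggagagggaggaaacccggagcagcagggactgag
Epha5: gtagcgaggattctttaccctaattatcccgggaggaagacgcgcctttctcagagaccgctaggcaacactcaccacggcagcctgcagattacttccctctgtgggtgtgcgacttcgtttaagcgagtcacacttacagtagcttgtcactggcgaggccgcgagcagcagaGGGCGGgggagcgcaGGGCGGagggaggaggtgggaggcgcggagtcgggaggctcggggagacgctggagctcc
Unc5c: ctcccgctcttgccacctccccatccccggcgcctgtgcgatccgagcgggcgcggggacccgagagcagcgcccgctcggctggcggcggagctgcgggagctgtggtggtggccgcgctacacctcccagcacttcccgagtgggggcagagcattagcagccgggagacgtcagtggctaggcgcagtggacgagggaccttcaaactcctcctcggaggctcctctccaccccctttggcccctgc
Efnb2 held 3 GC boxes, Unc5b and Epha5 held 2 each and Epha4 held 1. The windows of Robo1 and Unc5c held none. The windows are Efnb2 at chr8:8661243-8661492, Epha4 at chr1:77515089-77515338, Unc5b at chr10:60831582-60831831 and Epha5 at chr5:84417383-84417632, all on the minus strand, and Robo1 at chr16:72662899-72663148 and Unc5c at chr3:141465314-141465563, both on the plus strand. The RefSeq starts of Robo1 and Unc5c lie inside the longer gene spans of GENCODE M21, and so do their windows.

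Among the ephrin-A ligands, 4 of 5 were lower at P28 than at P1 (Efna1, Efna3, Efna4 and Efna5). Efna5 is an ephrin-A known from topographic mapping of axons. Its normalized counts were 522, 522 and 573 at P1, 168, 187 and 136 at P7, 77.3, 29.6 and 99.9 by P14 and 8.77, 30.7 and 43.3 by P28. The libraries of P1, P7 and P14 did not overlap and each later age was lower, while P14 and P28 overlapped. The net log2 fold change was -4.50 ± 0.58 (SE, adjusted p = 4.5e-05), and -3.85 without P28 replicate 1. No single interval passed the test, which used 1 spread taken from all 4 ages. Efna4, a ligand of several EphA receptors, was counted at 78.1, 156 and 47.7 at P1 and 50.2, 68.1 and 82.2 at P7. It had no read in any P14 library and 39.5, 11.8 and 1.35 at P28. Against a floor of 3 reads per library, Efna4 was at least 20.9-fold lower at P14 than at P7 (adjusted p = 0.000338) and at least 5.47-fold higher at P28 than at P14 (adjusted p = 0.0259). Such floors and bounds cover counting error only. The second of these calls was lost without any 1 of the 3 P14 libraries (adjusted p from 0.0577 to 0.0658) and without P28 replicate 1, where the bound was 2.05-fold (adjusted p = 0.0643). The net fall of Efna4 (-2.98 ± 0.93 SE, adjusted p = 0.0232) was lost without P1 replicate 1 (-3.03, adjusted p = 0.0627), P1 replicate 2 (-2.54, 0.0933) or P28 replicate 3 (-1.89, 0.0741), and was -3.95 without P28 replicate 1.

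Efna1 and Efna3 were low throughout. Efna1 had a mean of 24.6 ± 12.7 (SD, n = 3) at P1 and 2 reads in all at P28, so that P1 was 26.9 times higher (95% exact binomial interval 7.27 to 225, counting error only). Efna3 had 16.6 ± 7.26 at P1 and no read at P28, at least 4.15-fold lower (adjusted p = 0.00321), a call that held in the 9 of 12 leave-outs in which it still passed the filter. Efna2 was the ephrin-A gene with a fold change above 0, from 65.1 ± 20.5 at P1 to 140.1 ± 83.7 at P28, but it did not pass the test (0.98 ± 0.65 SE, adjusted p = 0.256). Efna1, Efna3 and Efna4 are neighbours on chromosome 3, separated by 32.8 kb between Efna1 and Efna3 and by 10.4 kb between Efna3 and Efna4.

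Of the 9 EphA receptors, 7 were lower and 1, Epha4, was higher at P28 than at P1. Epha4, the receptor that binds ephrins of both classes, was counted at 784, 461 and 824 at P1, 608, 673 and 559 at P7 and 855, 796 and 469 at P14. At P28 it reached 1872, 2321 and 1935, above all 9 earlier libraries. Its log2 fold change was 1.57 ± 0.26 (SE, adjusted p = 0.0020) from P14 to P28 and 1.61 ± 0.26 (SE, adjusted p = 0.000316) from P1, and both calls held without any 1 library. Epha5, a receptor for ephrin-A ligands, went the other way. Its normalized counts were 687, 656 and 366 at P1, 77.2, 68.1 and 48.1 at P7, 80.5, 46.5 and 131 by P14 and 2.92, 0 and 0 by P28. The P1 libraries lay above all others and the P28 libraries below all others, with P7 and P14 overlapping. It fell from P1 to P7 (-3.10 ± 0.68 SE, adjusted p = 0.0111) and from P14 to P28 (adjusted p = 0.000298), where 2 reads were left in 3 libraries. By reads, P1 was 658 times higher than P28 (95% exact binomial interval 182 to 5437) and P14 was 97.4 times higher (26.7 to 809). The P7 call was lost without P1 replicate 1 (-2.93, adjusted p = 0.0715), P1 replicate 2 (-2.97, 0.0638) or P7 replicate 3 (-2.90, 0.0621).

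Epha7, another ephrin-A receptor, was lower at P28 than at P1. It was 938, 887 and 447 at P1, 295, 516 and 443 at P7, 189.6, 229.6 and 226 by P14 and 284, 206 and 191 by P28, with P1 overlapping P7. Its net log2 fold change was -1.68 ± 0.32 (SE, adjusted p = 0.00115). Epha10, which lacks an active kinase, was 60.3, 128 and 111 at P1 and 77.2, 61.5 and 132 at P7, then 47.7, 1.06 and 18.5 by P14 and 2.92, 1.18 and 0 by P28. With 3 reads in all at P28, P1 was 73.7 times higher (95% exact binomial interval 25.0 to 359, adjusted p of the fit = 0.000768). Epha2, a receptor of epithelial and progenitor cells, was 204, 174 and 147 at P1, 63.7, 141 and 45.7 at P7, 24.4, 61.4 and 56.5 by P14 and 0, 8.26 and 20.3 by P28. Every P1 value was above every later one. The net log2 fold change was -4.91 ± 0.93 (SE, adjusted p = 0.00103), with -3.63 without P28 replicate 1 and -5.84 without P28 replicate 3. The fall of Epha2 from P14 (-2.95 ± 0.93 SE, adjusted p = 0.0469) was lost without each of the P1, P7 and P14 libraries in turn (adjusted p from 0.0578 to 0.133) and without P28 replicate 1 (-1.68, adjusted p = 0.0892), and was -3.89 without P28 replicate 3.

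The remaining 4 EphA receptors had low counts or varied between libraries. Epha6 fell from 29.5 ± 9.59 (SD, n = 3) at P1 to 1.95 ± 3.37 at P28 (-3.96 ± 0.92 SE, adjusted p = 0.00425, and -4.89 without P28 replicate 1). Epha8 had means of 118 ± 19.2 at P1, 209.8 ± 64.4 at P7 and 32.1 ± 25.2 at P28, and its net fall (-2.32 ± 0.79 SE, adjusted p = 0.0339) was lost without any 1 P1 library (adjusted p from 0.0674 to 0.0879) or P28 replicate 3 (-1.38, 0.112) and was -2.95 without P28 replicate 1. Epha1 fell from 105 ± 9.82 to 26.3 ± 39.6 (-3.33 ± 1.00 SE, adjusted p = 0.0193). That call was lost without P1 replicate 1 (0.061), P1 replicate 3 (0.052) or P28 replicate 1 (-2.28, adjusted p = 0.0656), and the value was -4.73 without P28 replicate 2. It was also lost with DESeq2 (-1.98, adjusted p = 0.0873), with edgeR (-1.94 with TMM and -1.97 with DESeq2 size factors, adjusted p = 0.149 and 0.143) and when only P1 and P28 were fitted (adjusted p = 0.0787). Epha1 shares 236 exon bases with Zyx on the opposite strand, and whether counting used strand is not given in the sources used here. Epha3 did not pass (-2.22 ± 0.86 SE, adjusted p = 0.0589), with P1 libraries from 73.6 to 443 and P28 libraries from 9.44 to 137, and it passed without P1 replicate 2 (-2.85, adjusted p = 0.0345) or P28 replicate 3 (-3.14, 0.00831).

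**Figure D3:**
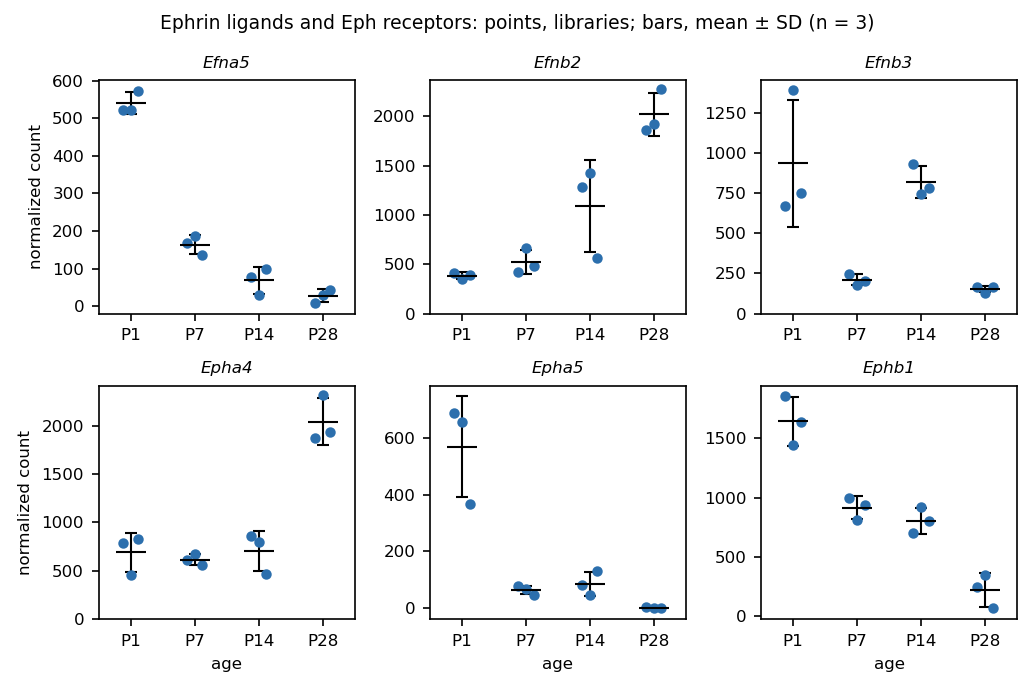
Normalized counts of 3 ephrin ligands (Efna5, Efnb2, Efnb3) and 3 Eph receptors (Epha4, Epha5, Ephb1) by age. Points are libraries, the long bar is the mean and the error bars are the SD (n = 3), and Efnb2 and Epha4 end highest at P28 while the other 4 end lowest.

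The ephrin-B ligands took 3 different courses. Efnb2, a transmembrane ligand of EphB receptors and of Epha4, was counted at 413, 348 and 389 at P1, 421, 661 and 484 at P7, 1286, 1428 and 561 by P14 and 1865, 1925 and 2272 by P28. All P28 libraries were above all others, and P14 replicate 3 (561) lay within the range of P7. Efnb2 rose from P1 to P28 (2.39 ± 0.30 SE, adjusted p = 3.31e-05), a call that held without any 1 library, while the difference from P1 to P7 did not pass (0.42 ± 0.30 SE, adjusted p = 0.528). The rise from P7 to P14 (0.98 ± 0.30 SE, adjusted p = 0.0306) was lost without P7 replicate 1, P7 replicate 3, P14 replicate 1 or P14 replicate 2 (0.73 to 0.94, adjusted p from 0.0957 to 0.148). The rise from P14 to P28 (0.99 ± 0.30 SE, adjusted p = 0.0389) was lost without P14 replicate 3 (0.57, adjusted p = 0.135), without P1 replicate 1 or 3, P7 replicate 3 or any 1 P28 library (adjusted p from 0.0506 to 0.0849), and with library totals neither of the 2 steps passed. P14 replicate 3 was also the library with the lowest choroid plexus sum of its age (829, beside 108545 and 62834), and its part in the value was not tested.

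Efnb3, an ephrin-B ligand known from midline axon guidance, alternated. It was counted at 671, 1393 and 749.7 at P1, 248, 179 and 202 at P7, 933, 747 and 781 by P14 and 168, 131 and 164 by P28. The P1 and P14 libraries all lay above the P7 and P28 libraries. Efnb3 fell from P1 to P7 (-2.09 ± 0.29 SE, adjusted p = 0.000465), rose from P7 to P14 (1.97 ± 0.29 SE, adjusted p = 0.000207) and fell from P14 to P28 (-2.41 ± 0.29 SE, adjusted p = 0.00029), and each of these calls held without any 1 library. Its net log2 fold change was -2.53 ± 0.29 (SE, adjusted p = 1.32e-05). At P14 the summed oligodendrocyte markers were also at their highest (265270 to 336692, beside 19606 to 29109.5 at P7 and 89505 to 126039 at P28). Of the 9, 6 were higher at P14 than at P7 and 6 lower at P28 than at P14. At P1, where Efnb3 was high as well, their sum was at its lowest (7289 to 11396). The sum of 7 granule neuron markers was also highest at P14 (10516 to 19929). It was 442 to 1430.4 at P1, 6423 to 9118 at P7 and 6419 to 7269 at P28. The sums of granule neuron precursor, general neuron, endothelial and microglia markers had their highest medians at P14 as well. The part of any of these lists in the P14 value was not tested. Efnb1 fell from 178 ± 24.4 (SD, n = 3) at P1 to 31.8 ± 36.1 at P28 (-3.49 ± 1.00 SE, adjusted p = 0.0151). This call was lost without P1 replicate 1 (adjusted p = 0.0527), and the value was -4.59 without P28 replicate 1 and -2.11 without P28 replicate 3.

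Of the 5 EphB receptors, 3 were lower at P28 than at P1 and none was higher. Ephb1, an ephrin-B receptor, was counted at 1853, 1443 and 1633 at P1, 995, 811 and 938 at P7, 699, 917 and 800.4 by P14 and 249.9, 349 and 66.3 by P28. P1 lay above all other libraries and P28 below all others. Ephb1 fell from P14 to P28 (-2.15 ± 0.43 SE, adjusted p = 0.00552, and -1.44 without P28 replicate 3), and its net log2 fold change was -3.18 ± 0.43 (SE, adjusted p = 6.26e-05), or -2.46 without P28 replicate 3. With only P14 and P28 fitted, the fall of Ephb1 from P14 was lost (adjusted p = 0.0842). Ephb3, which shares ephrin-B ligands with Ephb2, was 861, 695 and 573 at P1, 208, 90.3 and 128 at P7, 97.4, 83.6 and 30.4 by P14 and 172, 197 and 21.6 by P28. Every P1 library was above every later library, and the net log2 fold change was -2.93 ± 0.71 (SE, adjusted p = 0.00539), or -1.92 without P28 replicate 3. Ephb2 fell from 623 ± 191 (SD, n = 3) to 224 ± 99.6 (-1.51 ± 0.40 SE, adjusted p = 0.00963), a call lost without P1 replicate 1 (-1.30, adjusted p = 0.0532). Ephb6, a receptor without kinase activity, did not pass (-0.99 ± 0.55 SE, adjusted p = 0.178), with 133 ± 16.2 at P1 and 68.2 ± 18.9 at P28.

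Ephb4, the EphB receptor best known from veins and a partner of Efnb2, varied between the P28 libraries. It was counted at 187, 231 and 175 at P1, 53.3, 148 and 73.6 at P7 and 145, 94.2 and 170 by P14. At P28 it was 951, 501 and 66.3, where replicates 1 and 2 lay above all P1 libraries and replicate 3 below them. The net difference did not pass (0.69 ± 0.73 SE, adjusted p = 0.492). Without P28 replicate 3 it was 1.81 (adjusted p = 0.00825), and without P28 replicate 1 it was -0.10 (adjusted p = 0.924). The choroid plexus sums of the 3 P28 libraries were 103601, 181394 and 17656 and the endothelial sums 2896, 3626 and 4211. At P7 the choroid plexus sums were 60755, 127260 and 47689, with replicate 2 highest for both the sum and Ephb4. At P14 they were 108545, 62834 and 829, and replicate 3 had the lowest sum and the highest Ephb4 value. The part of these markers in the Ephb4 values was not tested.

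All 3 Slit ligands were lower at P28 than at P1, but at different times. Slit1, a secreted repellent of neural tissue (chr19:41600257-41743665, minus strand), was counted at 309, 277 and 340.0 at P1, 24.7, 18.3 and 39.5 at P7 and 12.7, 10.6 and 0 at P14. No library held a read at P28. Each age lay below the one before without overlap, except that P14 and P28 both included 0. Relative to P1, Slit1 at P28 was at least 77.3-fold lower (adjusted p = 1.16e-05). The fall from P1 to P7 (-3.50 ± 0.92 SE, adjusted p = 0.0314) was lost without any 1 of the P1 and P7 libraries (log2 fold change from -3.79 to -3.26, adjusted p from 0.071 to 0.13). Slit2, a Slit of the ventral midline and other sources, was 1347, 1638 and 929 at P1, 471, 613 and 467 at P7, 329, 252 and 261 by P14 and 228, 445 and 138 by P28. The P1 libraries were all above the P7 libraries and those above P14, while P28 overlapped P14. Slit2 fell from P1 to P7 (-1.31 ± 0.36 SE, adjusted p = 0.0372) and its net log2 fold change was -2.39 ± 0.36 (SE, adjusted p = 0.000147). The first of these calls was lost without P1 replicate 1 or 2, any 1 P7 library or any 1 P14 library (-1.44 to -1.12, adjusted p from 0.0505 to 0.167).

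Slit3, a Slit also expressed outside the nervous system, had its highest libraries at P14. It was 100.3, 190.1 and 78.0 at P1, 54.1, 202 and 90.7 at P7, 253, 237 and 374 by P14 and 29.2, 25.9 and 52.7 by P28. All P14 libraries lay above all others and all P28 libraries below. Slit3 fell from P14 to P28 (-3.01 ± 0.55 SE, adjusted p = 0.00341), a call that held without any 1 library. Its net fall (-1.71 ± 0.55 SE, adjusted p = 0.0261) was lost without P1 replicate 1 (-1.80, adjusted p = 0.0565), P1 replicate 2 (-1.34, 0.116) or P28 replicate 2 (-1.52, 0.0557).

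**Figure D4:**
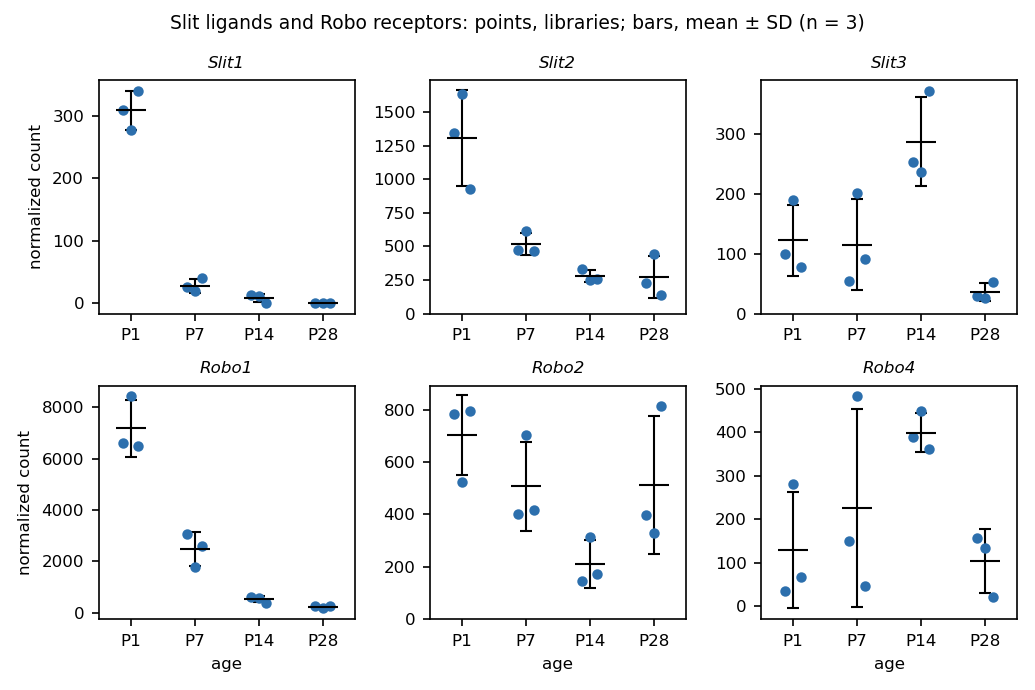
Normalized counts of Slit1, Slit2 and Slit3 and of Robo1, Robo2 and Robo4 by age. Points are libraries, the long bar is the mean and the error bars are the SD (n = 3), and Robo1 falls at each age from 7173 at P1 to 231 at P28 in the mean.

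Robo1 had the lowest p-value of all members in the test over the 4 ages (adjusted p = 1.03e-08). Robo1, a receptor for Slits (chr16:72308306-73046095 in GRCm38.p6, plus strand), was counted at 6610.0, 8430.1 and 6479.7 at P1, 3081, 1796 and 2585 at P7, 623, 567 and 397 by P14 and 275, 169.8 and 247 by P28. No 2 ages overlapped, and each was below the one before. The log2 fold change was -1.55 ± 0.25 (SE, adjusted p = 0.00155) from P1 to P7, -2.22 ± 0.25 (SE, adjusted p = 2.2e-05) from P7 to P14 and -1.20 ± 0.25 (SE, adjusted p = 0.00685) from P14 to P28. Over the whole period it was -4.97 ± 0.25 (SE, adjusted p = 5.3e-09), a mean 31.1-fold lower at P28. All 4 calls held without any 1 library, but that from P14 to P28 was lost when only those ages were fitted (adjusted p = 0.0829).

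Robo2, also a Slit receptor and a neighbour of Robo1 at 846 kb, took another course. Its values were 785, 526 and 797 at P1, 400.5, 704 and 419 at P7, 144, 315 and 170.5 by P14 and 396, 329 and 813 by P28. The P14 libraries lay below all others and the P1 and P28 libraries overlapped. Robo2 fell from P7 to P14 (-1.31 ± 0.38 SE, adjusted p = 0.0242), rose from P14 to P28 (1.25 ± 0.38 SE, adjusted p = 0.0405), and its net difference did not pass (-0.54 ± 0.38 SE, adjusted p = 0.286). The fall was lost without P7 replicate 2, P14 replicate 1 or P14 replicate 3 (-1.20 to -1.05, adjusted p from 0.0814 to 0.115). The rise was lost without P28 replicate 3 (0.86, adjusted p = 0.12) and without P1 replicate 1 or 3, P7 replicate 1 or 3, or P14 replicate 1 or 3 (adjusted p from 0.0533 to 0.143), and with library totals.

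Robo3 and Robo4 lie 553 bases apart on chromosome 9 and differed in course. Robo3, a receptor of commissural axons, was low, with 51.1, 25.7 and 81.0 at P1, 15.1, 28.8 and 3.10 at P7 and 5.30, 0 and 57.6 by P14. It had 3 reads in all at P28 (0, 0 and 4.06), so that P1 was 39.4 times higher (95% exact binomial interval 13.3 to 192, adjusted p of the fit = 0.0104). Robo4, the Robo of blood vessels, was 35.7, 282 and 67.4 at P1, 149, 483 and 45.7 at P7, 389, 449 and 361 by P14 and 156, 134 and 20.3 by P28. Replicate 2 was the highest library at P1, P7 and P14. The net difference of Robo4 did not pass (-0.21 ± 0.91 SE, adjusted p = 0.874). The 8 endothelial markers summed to 819, 3830.3 and 1134 at P1, 2764, 10834 and 1762 at P7, 5154, 6019 and 5167 by P14 and 2896, 3626 and 4211 by P28, also highest in replicate 2 at P1, P7 and P14. None of the 8 was at 0 in all libraries of an age, none passed the test from P1 to P7 or from P7 to P14 and 1 was lower at P28 than at P14, and their part in the Robo4 values was not tested.

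Of the netrins, 4 of the 5 tested were lower at P28 than at P1 and none was higher. Ntn1, the secreted netrin that Dcc and Unc5 receptors bind (chr11:68209364-68400823, minus strand), was counted at 1747, 2506 and 2144 at P1, 686, 547 and 869.7 at P7, 162, 142 and 274 by P14 and 13.2, 243 and 276 by P28. P1, P7 and P14 did not overlap, with each age below the one before, and replicate 1 was far below the others at P28. The net log2 fold change was -4.42 ± 0.79 (SE, adjusted p = 0.00067). It was -3.02 without P28 replicate 1, -5.08 without replicate 2 and -5.17 without replicate 3, with the call kept each time. No interval alone passed the test, but each of these tests used 1 spread taken from all 4 ages. That spread includes the wide range of the P28 libraries, also for intervals without P28. Ntn3, a second secreted netrin, fell from 66.9 ± 17.9 (SD, n = 3) to 3.69 ± 3.95 (-4.13 ± 0.99 SE, adjusted p = 0.00522, and -4.78 without P28 replicate 2), and it shares 89 exon bases with Tbc1d24 on the same strand. Ntn4, a netrin of basement membranes, had means of 105 ± 9.72 at P1, 345 ± 120.4 at P7, 263 ± 51.5 by P14 and 124 ± 101 by P28, and its net difference did not pass (-0.49 ± 0.75 SE, adjusted p = 0.642).

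The netrin-G genes encode lipid-anchored netrins that bind synaptic adhesion partners in place of Dcc. Ntng1 was 259.6, 224 and 238 at P1, 49.4, 98.2 and 40.3 at P7, 129, 75.1 and 177 by P14 and 107, 54.3 and 112 by P28, with all P1 libraries above all later ones. It fell from P1 to P7 (-2.03 ± 0.49 SE, adjusted p = 0.0196), a call lost without any 1 P1 library, P7 replicate 1 or P7 replicate 3 (-2.08 to -1.77, adjusted p from 0.0588 to 0.101). Its net fall (-1.46 ± 0.49 SE, adjusted p = 0.0322) was lost without any 1 P1 library or P28 replicate 2 (-1.51 to -1.13, adjusted p from 0.0675 to 0.0992). Ntng2 fell from 178 ± 40.1 (SD, n = 3) to 37.1 ± 32.4 (-3.58 ± 1.18 SE, adjusted p = 0.0293). That call was lost without any 1 P1 library (adjusted p from 0.0635 to 0.0869), and the value was -1.64, -4.50 and -4.60 without P28 replicates 1, 2 and 3. Ntng2 shares 558 exon bases with 6530402F18Rik on the same strand.

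The netrin receptors moved in both directions and at every interval. Dcc, the receptor that mediates attraction to netrin-1, was counted at 1812, 549 and 2910.1 at P1, 9105, 5492 and 8275 at P7, 211, 173 and 106 by P14 and 20.5, 2.36 and 9.47 by P28. P7 was above all other libraries, and P1, P14 and P28 followed in that order without overlap. Dcc rose from P1 to P7 (2.39 ± 0.63 SE, adjusted p = 0.0314), then fell from P7 to P14 (-5.56 ± 0.63 SE, adjusted p = 2.37e-05) and from P14 to P28 (-4.12 ± 0.63 SE, adjusted p = 0.00121). The rise was lost without P1 replicate 2 (1.70, adjusted p = 0.16) and without P1 replicate 1, P14 replicate 2 or any 1 P7 library (2.24 to 2.61, adjusted p from 0.0502 to 0.113). The last fall was lost with only P14 and P28 fitted (adjusted p = 0.0509), and was -4.74 without P28 replicate 1 and -3.40 without P28 replicate 2. The net log2 fold change was -7.29 ± 0.63 (SE, adjusted p = 9.9e-07), with -7.98 without P1 replicate 2, -7.91 without P28 replicate 1 and -6.57 without P28 replicate 2.

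Unc5c, an Unc5 receptor needed for the normal border of the cerebellum, was also highest at P7. It was 1109, 316 and 1735 at P1, 6273, 4551 and 6258 at P7, 746, 615 and 876 by P14 and 288, 263 and 149 by P28, with P7 above and P28 below all other libraries. Unc5c rose from P1 to P7 (2.73 ± 0.46 SE, adjusted p = 0.00212, and 2.02 without P1 replicate 2) and fell from P7 to P14 (-2.93 ± 0.46 SE, adjusted p = 0.000379), and both calls held without any 1 library. The fall from P14 to P28 (-1.71 ± 0.46 SE, adjusted p = 0.0235) was lost without P14 replicate 1 (-1.71, adjusted p = 0.0666), P14 replicate 3 (-1.59, 0.0882) or P28 replicate 3 (-1.42, 0.0681). Its net log2 fold change was -1.91 ± 0.46 (SE, adjusted p = 0.00523), or -2.62 without P1 replicate 2. At P1, replicate 2 was the lowest library and replicate 3 the highest for both Dcc and Unc5c, and replicate 2 was the lowest for both at P7. The 7 markers of interneurons and their precursors summed to 2166, 1008 and 3501 at P1, 7941, 3883 and 7665 at P7, 427, 304 and 548 by P14 and 499.8, 1063 and 319 by P28, with the same libraries lowest at P1 and P7. The 9 general neuron markers summed to 10685, 8507 and 16315 at P1 and 25444, 22118 and 28466 at P7, also lowest in replicate 2. Of these 9, 5 were higher at P7 than at P1, and their sum was 26597 to 45046 at P14. The astrocyte sum was lowest in replicate 2 at P7 (27396) but in replicate 3 at P1 (61652). The 6 cycling-cell markers summed to 13253, 7331 and 13496 at P1 and 17715, 23808 and 19722 at P7. The 7 granule neuron markers summed to 842, 442 and 1430.4 at P1 and 6423, 9118 and 7904 at P7. The 6 granule neuron precursor markers summed to 1876, 1287 and 1799 at P1 and 1957, 2618 and 2229 at P7. The cycling-cell sum and both granule sums were lowest in replicate 2 at P1 and highest in it at P7. Of the 7 interneuron markers, 1 was higher at P7 than at P1 and 6 were lower at P14 than at P7. None was at 0 in all libraries of P1 or P7, and Ptf1a was at 0 in all 3 of P14. The part of any of these lists in the Dcc and Unc5c values was not tested.

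**Figure D5:**
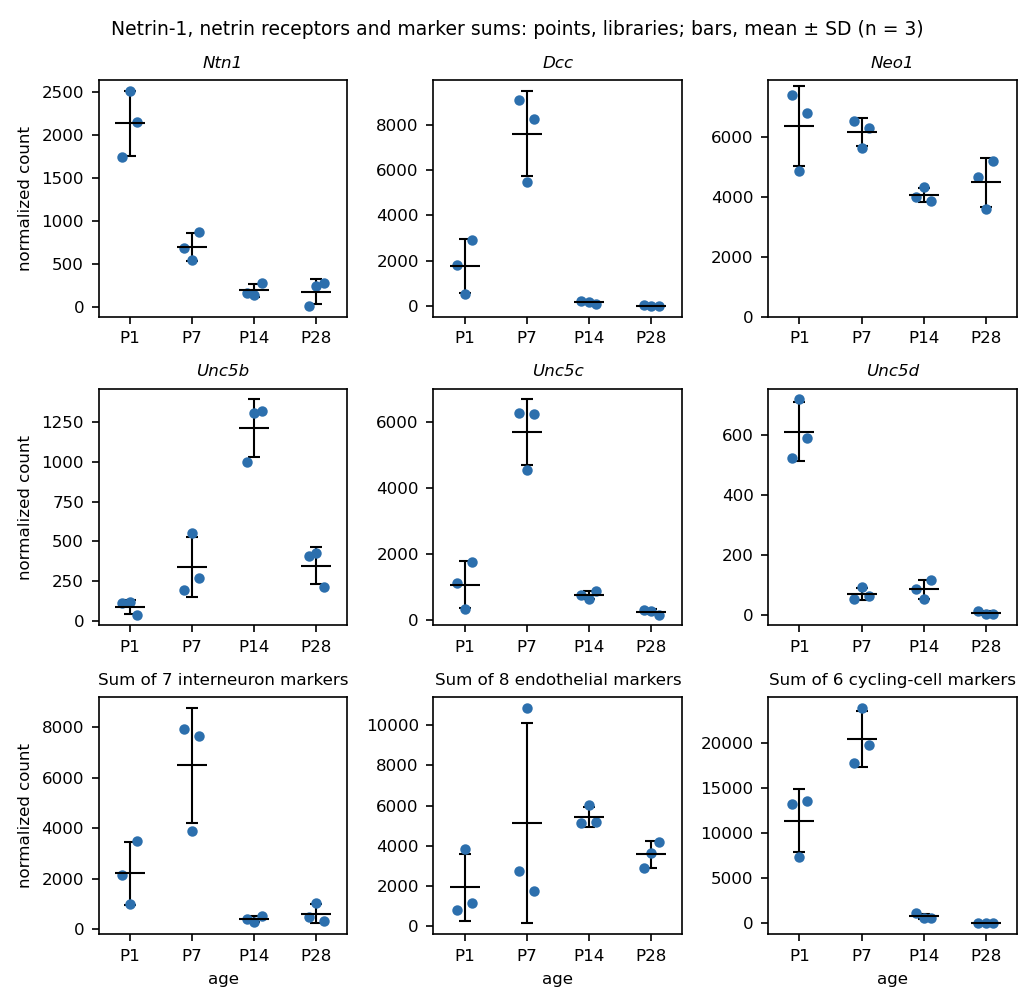
Normalized counts of Ntn1 and 5 netrin receptors by age, with the sums of 7 interneuron, 8 endothelial and 6 cycling-cell markers in the bottom row. Points are libraries, the long bar is the mean and the error bars are the SD (n = 3), and Dcc, Unc5c and the interneuron and cycling-cell sums have their highest mean at P7 while Unc5b and the endothelial sum have theirs at P14.

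Unc5b, an Unc5 receptor also known from vessels, peaked later. It was 113, 121 and 40.9 at P1, 197, 555 and 273 at P7, 999, 1305 and 1321 by P14 and 409, 425 and 212 by P28. P14 lay above all other libraries and P1 below all others, while P7 and P28 overlapped. Unc5b rose from P1 to P7 (1.90 ± 0.45 SE, adjusted p = 0.0183) and from P7 to P14 (1.95 ± 0.45 SE, adjusted p = 0.00669) and fell from P14 to P28 (-1.84 ± 0.45 SE, adjusted p = 0.0157), which left a net rise of 2.00 ± 0.45 (SE, adjusted p = 0.00358). The rise to P14 and the net rise held without any 1 library. The rise to P7 was lost without P1 replicate 3 (1.41, adjusted p = 0.0671) or P7 replicate 2 (1.48, 0.106), and the later fall without P14 replicate 2 (-1.78, 0.0534) or P14 replicate 3 (-1.77, 0.0609). Replicate 2 was the highest library of both Unc5b and the endothelial sum at P1 and at P7. At P14 the highest library was replicate 3 for Unc5b (1321) and replicate 2 for the sum (6019). At P28 replicate 3 was the lowest for Unc5b (212) and the highest for the sum (4211). The endothelial and oligodendrocyte sums had their highest medians at P14. So did the sums of granule neuron precursor, granule neuron, general neuron and microglia markers. The part of any of these markers in the Unc5b values was not tested.

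Unc5d and Unc5a completed the Unc5 receptors. Unc5d, known from radial migration of cortical neurons, was 526, 720.2 and 591 at P1, 53.3, 92.9 and 62.8 at P7, 86.8, 54.0 and 116 by P14 and 13.2, 2.36 and 4.06 by P28. P1 lay above all others and P28 below all others, with P7 and P14 overlapping. Unc5d fell from P1 to P7 (-3.14 ± 0.59 SE, adjusted p = 0.00426) and from P14 to P28 (-3.73 ± 0.59 SE, adjusted p = 0.00152, and -4.33 without P28 replicate 1), and its net log2 fold change was -6.61 ± 0.59 (SE, adjusted p = 1.47e-06), or -7.21 without P28 replicate 1. The later fall of Unc5d was lost with only P14 and P28 fitted (adjusted p = 0.0644). Unc5a fell from P14 to P28 (-2.43 ± 0.76 SE, adjusted p = 0.0453), but the call was lost without each library but P28 replicate 2 (adjusted p from 0.050 to 0.141), and the value was -3.27 without P28 replicate 2 and -1.72 without P28 replicate 3. Its net difference did not pass (-1.89 ± 0.76 SE, adjusted p = 0.0665), and passed without P28 replicate 2 (-2.74, adjusted p = 0.00583).

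Neo1, the relative of Dcc that also binds repulsive guidance molecules, changed least among the members called between P1 and P28. It was 7433, 4862 and 6826 at P1, 6559.9, 5646 and 6307 at P7, 4002, 4333 and 3880.2 by P14 and 4672, 3613 and 5210.5 by P28. The P14 libraries lay below all those of P1 and P7, and P28 overlapped P1. Neo1 fell from P7 to P14 (-0.60 ± 0.18 SE, adjusted p = 0.0261), a call lost without P7 replicate 1, P7 replicate 3 or any 1 P14 library (-0.64 to -0.55, adjusted p from 0.0512 to 0.0979). The net fall (-0.50 ± 0.18 SE, adjusted p = 0.0422) was lost in 9 of the 12 leave-outs, all but those of P1 replicate 2, P7 replicate 2 and P28 replicate 3 (-0.53 to -0.35, adjusted p from 0.052 to 0.174).

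Per kb of merged exon, the only scale on which levels are set between genes here, Neo1 was the highest member at every age in the mean. At P1 it had 731 ± 154 normalized counts per kb (SD, n = 3), followed by Robo1 at 434 ± 66.0, Ntn1 at 339.7 ± 60.4, Efnb3 at 295 ± 124 and Ephb1 at 235 ± 29.3. Neo1 lay above Robo1 in every P1 library, while the ranges of Robo1 and Ntn1, of Ntn1 and Efnb3 and of Efnb3 and Ephb1 overlapped. At P7 Neo1 (708 ± 54.1) and Dcc (579 ± 144) overlapped, and Unc5c (298 ± 51.8) and Robo1 (151 ± 39.3) followed without overlap. At P14 the order was Neo1 (467 ± 26.9), Efnb3 (258 ± 31.1), Unc5b (193 ± 29.0) and Efnb2 (159 ± 67.8), of which only the last pair overlapped. At P28 Neo1 (516 ± 93.3) was followed by Efnb2 (295 ± 32.1) and Epha4 (254 ± 30.2), which overlapped each other, and by Ephb4 (109 ± 95.4). The leading members after Neo1 went from a Slit receptor and a netrin at P1, through netrin receptors at P7, to an ephrin-B ligand and an Eph receptor at P28. Exons on the opposite strand also overlap 8 members other than Epha1 and the netrins (Efna3, Efna4, Epha6, Epha10, Ephb1, Ephb4, Unc5a and Unc5c) by 33 to 344 bases, where reads of the partners cannot be told apart without strand.

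Other extracellular partners and signalling genes of these systems had net medians nearer to 0. Of 16 genes for further ligands, co-receptors and binding partners, 15 were tested. At P7 1 was higher and 5 lower than at P1 (beside 3.47% and 4.24% of all genes), at P14 5 were higher and 2 lower than at P7 (10.8% and 10.0%), at P28 4 were higher and 3 lower than at P14 (5.68% and 8.76%), and from P1 to P28 4 were higher and 5 lower (14.6% and 20%), with a net median of -0.48. Of 41 genes that act below the receptors, 40 were tested, and between P1 and P28 10 rose and 8 fell (median -0.00478), the falls at the share of all genes (20%). The steps had 3 higher and 4 lower, 6 and 5, and 4 and 4, beside the same shares of all genes as above. Draxin, a secreted ligand of Dcc and netrin-1, was 1315, 1421 and 1195 at P7, 335, 151 and 34.8 at P14 and 5.85, 1.18 and 1.35 at P28. It fell in both intervals (-3.42 ± 0.66 SE, adjusted p = 0.00192 and -5.22 ± 0.66 SE, adjusted p = 0.000424). Rgma, a ligand of Neo1, fell from P1 to P7 (-2.29 ± 0.32 SE, adjusted p = 0.000486), from 8916, 9745 and 8695 to 2865, 1009 and 2215. Rgma then rose from P7 to P14 (0.94 ± 0.32 SE, adjusted p = 0.0475) and was 5055, 6219 and 8841 at P28. Its net difference did not pass (-0.48 ± 0.32 SE, adjusted p = 0.257). Trim9, a ubiquitin ligase that binds Dcc, also fell from P1 to P7 (-2.17 ± 0.23 SE, adjusted p = 8.87e-05), while its relative Trim67 rose (1.71 ± 0.36 SE, adjusted p = 0.00933). Trim67 was 320, 266 and 502 at P1 and lower, at 240, 110 and 114, at P28.

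The rises after P1 included Chn2, a chimaerin that turns off Rac below Eph receptors. It was 122, 173 and 142 at P1, 668, 814 and 843 at P7 and 4084, 5807 and 7757 at P14, and it rose in both intervals (2.41 ± 0.27 SE, adjusted p = 9.94e-05 and 2.88 ± 0.27 SE, adjusted p = 4.22e-06). The sums of 7 granule neuron markers were higher at each of these ages as well, at 442 to 1430.4 at P1, 6423 to 9118 at P7 and 10516 to 19929 at P14. Those of other lists also rose, with 7289 to 11396, 19606 to 29109.5 and 265270 to 336692 for oligodendrocyte markers. The 7 Purkinje cell markers summed to 1575 to 2059, 2251 to 3022 and 3787 to 4200. The part of any of these lists was not tested. Nell2, a ligand of Robo3, rose from P7 to P14 (2.05 ± 0.23 SE, adjusted p = 2.31e-05), whereas Grip1, a scaffold that binds ephrin-B and Eph receptors, fell (-3.15 ± 0.87 SE, adjusted p = 0.0181). From P14 to P28, Gpc1, a heparan sulfate proteoglycan that binds Slits, rose (1.43 ± 0.31 SE, adjusted p = 0.00915), as did Adgrl3, a latrophilin that forms complexes with Unc5 receptors (1.31 ± 0.17 SE, adjusted p = 0.000529), and Pak3, a kinase below Rac and Cdc42, fell (-2.11 ± 0.40 SE, adjusted p = 0.00422).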

How the data were processed

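RNA of GFP-sorted cerebellar cells was measured in 12 libraries. The authors aligned reads to mm10 with STAR 2.5.0a (version from the submitters' processing notes), counted them on UCSC transcripts with GenomicAlignments and normalized with DESeq2 (1.30.1 in the submitters' notes, another version in the study's methods). How overlapping genes and strand were handled is not given in the sources used here. The deposited values are a signal, read counts divided by 1 size factor per library: 100.0% of them were whole multiples of the library's smallest value within 0.01, so whole reads were recovered. Every column name carries P28, and columns were matched to samples through the labels' descriptions. No 2 libraries of an age agreed within counting noise.

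Differences were tested with limma 3.58.1 (R 4.3.3) on log2(value + 1) in 1 fit of all 12 libraries with a mean per age and a mean-variance trend. The 15464 genes with values of 10 or more in 3 or more libraries were tested. Benjamini-Hochberg adjusted p-values under 0.05 over all genes were called. The added 1 shrinks differences between low values, and a difference of mean logs can be larger or smaller than the fold of the means. All tests were two-sided and were tested on simulated data first. Alternatives included edgeR 4.0.16 and DESeq2 1.42.0 on the recovered reads.

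The members and lists were chosen with earlier results of these data known. Each library's value is given for members among the 20 lowest p-values of the F test with adjusted p under 0.05 and for the member with the highest mean value in each of the 8 families. Of partners and signalling genes, the 2 largest rises and falls per interval with a mean of at least 10 are named. Ephb4, Ntng1, Robo2, Robo3 and Robo4 are given by library outside this rule, chosen after their values were seen. Exon lengths came from GENCODE M21, not the authors' transcripts. Same-numbered samples of neighbouring ages did not deviate together in every pair (correlations from -0.029 to 0.139), so they were not treated as paired. The 3 reads of the floor are counted per library, and PCR copies make intervals cover counting error only.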

Additional observations from a re-analysis of the deposited data

How the results depend on the processing

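Single members were recomputed for 75 differences, the 66 called and 9 others given above, so that other uncalled steps could not gain a call in this count. Of the 1765 values obtained, 1579 stayed on their side of the threshold with the same direction, 170 lost their call, 9 gained one and 7 turned. All 7 that turned were differences from P1 to P28 that did not pass: Ntn4 at 0.28 with edgeR and TMM, 0.25 with edgeR and DESeq2 size factors, 0.25 with DESeq2 and 0.76 without P28 replicate 3, Robo4 at 0.62 without P1 replicate 2 and 0.71 without P28 replicate 3, and Ephb4 at -0.10 without P28 replicate 1. Over all libraries left out in turn, these 3 ranged from -1.23 to 0.76, from -0.86 to 0.71 and from -0.10 to 1.81. Fitting only the ages compared gave 14 members lower at P7 than P1, 10 lower at P14 than P7, and 1 higher and 5 lower at P28 than P14. That fit kept the log2 fold changes of the main fit and took the spread from the ages compared alone. Library totals gave 10 lower at P14 than P7 and 2 higher at P28 than P14. Without a filter, 2 were higher at P28 than P14. A value of at least 10 in every library left 6 lower at P28 than P14, 12 lower at P28 than P1 and 16 that differed over the 4 ages, from fewer members tested. Unadjusted p-values with a log2 fold change over 0.75 gave 13 lower at P14 than P7 and 20 lower at P28 than P14. Leaving out each library gave 1 to 4 higher and 3 to 11 lower at P7, 2 to 4 and 4 to 10 at P14, 1 to 4 and 8 to 14 at P28 against P14, 3 to 4 and 19 to 28 at P28 against P1, and 26 to 34 over the 4 ages. With the replicate number as a replicate block, 8 members were lower at P7 than P1, 33 differed over the 4 ages and the other counts were as without it, Unc5a losing its fall from P14 to P28 while 1 other member gained one. The share of all genes called under each of these settings is not given here. These counts therefore describe the settings and are not a result about the members. The cause of these shifts was not tested. Depth limits the low members: only bounds or wide counting intervals are given for Slit1, Efna1, Efna3, Efna4, Epha5, Epha10 and Robo3 where reads ran out, and no fold for Ntn5.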
